A study of Arabidopsis thaliana with 18 samples.

Results

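WRKY proteins are plant transcription factors, and 54 genes of the family in Arabidopsis thaliana were followed here by their gene identifiers, across wild-type seedlings and 5 mutant lines. Of the 54 genes, 41 passed a filter on low counts (edgeR's filterByExpr with its minimum count of 10) and were tested, among 18906 of the 33602 genes in the count table. The other 13 had few reads in every genotype and are given at the end of the account of levels. All seedlings were of the Col-0 ecotype and were grown for 14 days on MS medium at 22 °C under a cycle of 16 h light and 8 h darkness. The wild type is called Col-0. The line atchz1ab is known to lack the AtChz1a and AtChz1b genes, which encode relatives of the yeast H2A.Z chaperone Chz1. The labels give no allele or gene identifier for it, and its target transcripts were not analysed here. The line hta9hta11 carries hta9-1 and hta11-2, mutations in genes for the histone variant H2A.Z, and its name lists no mutation in HTA8, a further H2A.Z gene. The line arp6 carries arp6-1, a mutation in a subunit of the SWR1 complex, which places H2A.Z in nucleosomes. The lines atchz1ab hta9hta11 and atchz1ab arp6 combine the mutations of their names. Each of the 6 genotypes had 3 libraries, made from whole seedlings with a stranded mRNA kit. In bulk samples such as these, fewer cells of a type and less RNA per cell cannot be told apart.

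As background, a WRKY domain holds a short conserved run of residues, which gives the family its name, followed by a zinc finger, and it binds the W-box, a DNA element with the core TTGAC. Members with a pair of domains form group I. Members with a single domain form groups II and III, and group II is divided into IIa to IIe. Many WRKY genes are switched on within minutes to hours of wounding, microbial patterns or salicylic acid, often downstream of MAP kinases, and their own promoters often hold W-boxes. Others act in leaf senescence, phosphate supply, trichomes, cell walls and flowering. H2A.Z lies around the start of many genes and in the bodies of genes that respond to the environment.

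The library totals ran from 7163359 to 10744318 counts. ARP6 (AT3G33520) had 714 counts summed over the Col-0 libraries, 0 in arp6 and 1 in atchz1ab arp6. HTA11 had 499 summed counts in Col-0, 23 in hta9hta11 and 23 in atchz1ab hta9hta11, and HTA9 had 2380, 1149 and 1135, so that HTA9 reads were fewer but not gone. The WRKY genes together took 0.0612% to 0.0627% of the counts in the Col-0 libraries, 0.0628% to 0.0649% in atchz1ab, 0.0576% to 0.0583% in hta9hta11 and 0.0596% to 0.0607% in atchz1ab hta9hta11. In arp6 this share was 0.0434% to 0.0436%, below every other genotype, and in atchz1ab arp6 it was 0.0459% to 0.0492%. Nothing in the labels tells whether the replicates came from separate cultures, so the spread behind the p-values is that of these libraries and may be technical.

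Every one of the 54 genes encodes the family's conserved run of 7 residues at least once in its RefSeq coding sequence, and 11 of 11 genes of group I encode it 2 times, which gives 65 runs in all. The 21 bases that encode it are shown for genes described below and for the 2 genes that differ, read from the TAIR10.1 genome (the same chromosome sequences as TAIR10) with its RefSeq annotation, with the codon of the sixth residue in capitals. That codon encodes glutamine in 63 runs and lysine in 2, those of WRKY50 and WRKY51.
WRKY18: tggaggaaatacggaCAAaag
WRKY40: tggaggaaatatggaCAGaaa
WRKY60: tggaggaaatacgggCAAaag
WRKY54: tggaggaaatatggaCAAaag
WRKY70: tggaggaaatatggaCAAaag
WRKY33, run 1: tggagaaagtacggaCAAaaa
WRKY33, run 2: tggagaaaatacggcCAGaaa
WRKY50: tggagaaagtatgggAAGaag
WRKY51: tggaggaagtatggcAAGaaa
The strings of WRKY54 and WRKY70 were identical. In all, the 65 runs used 53 distinct strings of codons.

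The promoter windows of 4 genes, from 250 bases before to 50 bases after the annotated start, are shown because these genes mark the patterns that follow: WRKY40 and WRKY47 were lower in arp6, and WRKY54 and WRKY70 were lower in the 3 lines without arp6. Bases come from TAIR10.1 with RefSeq starts, are written 5′ to 3′ on the gene's strand, and capitals mark the W-box core TTGAC or its complement on the other strand, GTCAA.
WRKY40 (chr1:30383311-30383610, plus strand): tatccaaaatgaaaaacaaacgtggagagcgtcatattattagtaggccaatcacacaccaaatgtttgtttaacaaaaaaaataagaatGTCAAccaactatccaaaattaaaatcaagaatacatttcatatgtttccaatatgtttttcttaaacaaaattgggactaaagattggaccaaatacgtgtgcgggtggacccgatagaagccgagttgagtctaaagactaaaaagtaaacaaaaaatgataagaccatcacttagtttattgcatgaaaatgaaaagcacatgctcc
WRKY47 (chr4:744554-744853, plus strand): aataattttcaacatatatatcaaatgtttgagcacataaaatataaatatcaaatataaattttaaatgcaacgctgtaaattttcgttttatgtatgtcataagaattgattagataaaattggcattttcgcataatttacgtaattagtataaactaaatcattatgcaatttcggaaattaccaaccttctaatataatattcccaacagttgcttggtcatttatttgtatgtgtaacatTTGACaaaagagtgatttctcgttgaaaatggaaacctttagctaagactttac
WRKY54 (chr2:17002479-17002778, minus strand): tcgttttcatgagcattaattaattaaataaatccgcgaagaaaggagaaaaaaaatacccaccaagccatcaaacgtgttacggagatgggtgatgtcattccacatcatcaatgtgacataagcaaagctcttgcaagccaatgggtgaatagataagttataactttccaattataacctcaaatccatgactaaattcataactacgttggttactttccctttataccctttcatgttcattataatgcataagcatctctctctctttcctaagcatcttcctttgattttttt
WRKY70 (chr3:20910574-20910873, minus strand): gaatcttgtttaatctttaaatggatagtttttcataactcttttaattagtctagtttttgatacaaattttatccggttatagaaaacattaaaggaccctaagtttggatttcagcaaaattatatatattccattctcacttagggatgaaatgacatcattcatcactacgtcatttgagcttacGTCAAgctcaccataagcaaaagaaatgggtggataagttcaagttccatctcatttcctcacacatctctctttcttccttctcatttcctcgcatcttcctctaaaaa
The windows of WRKY40, WRKY47 and WRKY70 held 1 core each and that of WRKY54 held 0. None of these cores was followed by C or T, so the windows held neither of the longer forms TTGACC and TTGACT. The core was searched on both strands of all windows. It stood in 33 of the 54 family windows (61.1%) and in 50.5% of the windows of 27443 nuclear protein-coding genes. Of the 24 genes called lower in arp6, described below, 18 windows held it (75.0%), against 6 of the 17 other tested members (35.3%). Longer forms and repeats of the core differed less between these sets. TTGACC stood in 12.5% of the lower genes' windows and 5.88% of the others', beside 14.1% of all tested genes' windows. TTGACT stood in 33.3% and 23.5%, beside 21.4%. At least 2 cores stood in 29.2% and 23.5%, beside 17.7%. These shares describe letters in a window and carry no test.

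Compared per kilobase of exon, the levels of the 41 tested genes in Col-0 ran from 0.434 to 33.3 CPM per kilobase, with a median of 4.71. CPM are counts scaled to the library size, after TMM scaling of that size. The highest level per kilobase was that of WRKY15 (IId), at 33.3 ± 2.52 (SD, n = 3), followed by WRKY3 (I) at 28.9 ± 1.52, WRKY1 (I) at 21.5 ± 0.231, WRKY39 (IId) at 19.6 ± 1.86 and WRKY33 (I) at 19.4 ± 1.5. The last 2 differed by less than their SD. In total 9 genes exceeded 10 CPM per kilobase and 2, WRKY12 and WRKY35, lay under 1. The 13 genes below the filter were WRKY30, WRKY31, WRKY38, WRKY41, WRKY50, WRKY51, WRKY53, WRKY55, WRKY58, WRKY61, WRKY71, WRKY72 and WRKY74, with 3 to 99 counts each over all 18 libraries. The 99 counts were those of WRKY53, a senescence regulator, spread as 14 in Col-0, 21 in atchz1ab, 17 in hta9hta11, 16 in atchz1ab hta9hta11, 10 in arp6 and 21 in atchz1ab arp6. The 3 counts were those of WRKY38, all in atchz1ab arp6. WRKY50 and WRKY51, the lysine members, which act in salicylic acid's repression of jasmonate responses, had 36 and 32 counts in all. These 13 genes had too few reads to be tested at this depth.

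The mutants were compared with edgeR's quasi-likelihood test, and calls were made at p under 0.05 after Benjamini-Hochberg adjustment across the 18906 tested genes. Fold changes are log2 values with their standard error. The 5 comparisons with Col-0 share its 3 libraries. In arp6, 24 of the 41 WRKY genes were called lower and 3 higher, while 25.5% of all tested genes were called lower and 24.2% higher. The median WRKY fold change was -0.65 and that of all genes -0.02, and 14 of the 24 were lower by at least 2-fold. In atchz1ab arp6, 17 were lower and 2 higher, beside 23.2% and 22.7% of all genes, and 9 of the 17 were at least 2-fold lower. The other lines changed fewer members. In atchz1ab, 4 were lower and 3 higher (5.55% and 6.15% of all genes), in hta9hta11 7 and 1 (5.26% and 5.98%), and in atchz1ab hta9hta11 6 and 2 (5.32% and 6.19%). The median log2 fold change of the WRKY genes was -0.32 for atchz1ab arp6 and -0.12 for hta9hta11. It was -0.05 for atchz1ab hta9hta11 and -0.02 for atchz1ab, while that of all genes lay within 0.02 of 0 each time. In all, 30 of the 41 genes were called in at least 1 line against Col-0, as were 61.9% of all tested genes.

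**Figure D1:**
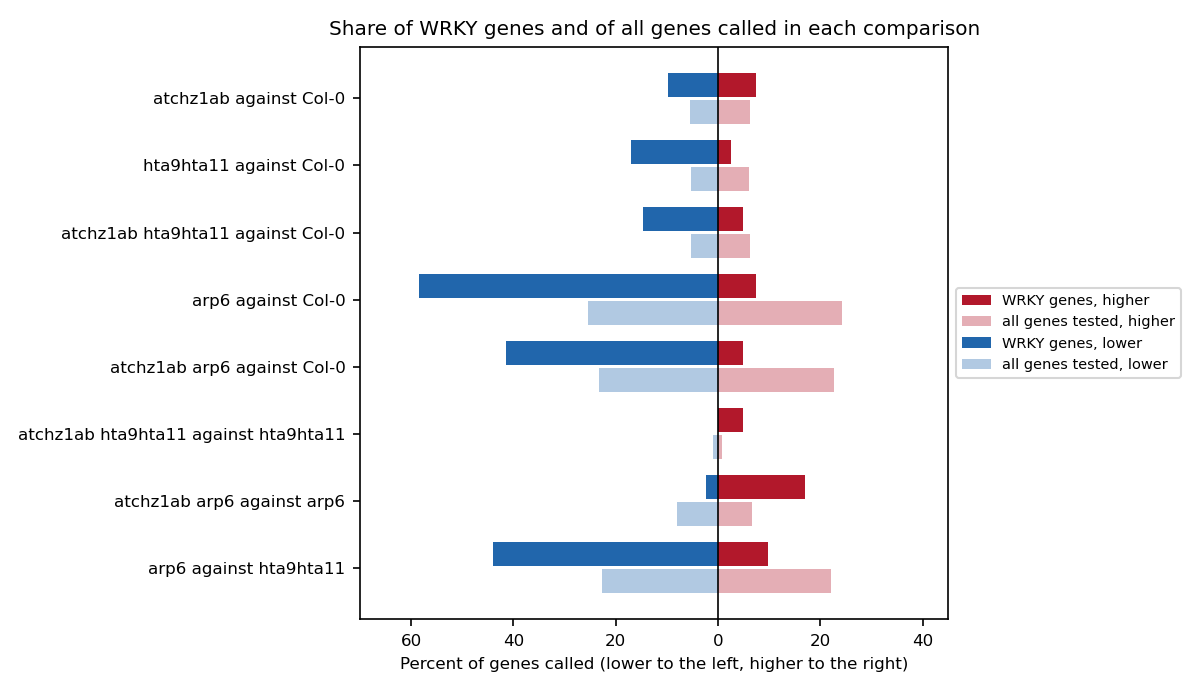
Percent of the 41 WRKY genes (dark bars) and of all 18906 tested genes (pale bars) called lower, to the left, or higher, to the right, in each of 8 comparisons of 2 genotypes. The dark bar to the left is longest for arp6 against Col-0, where 24 of 41 genes were lower while 25.5% of all genes were.

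**Figure D2:**
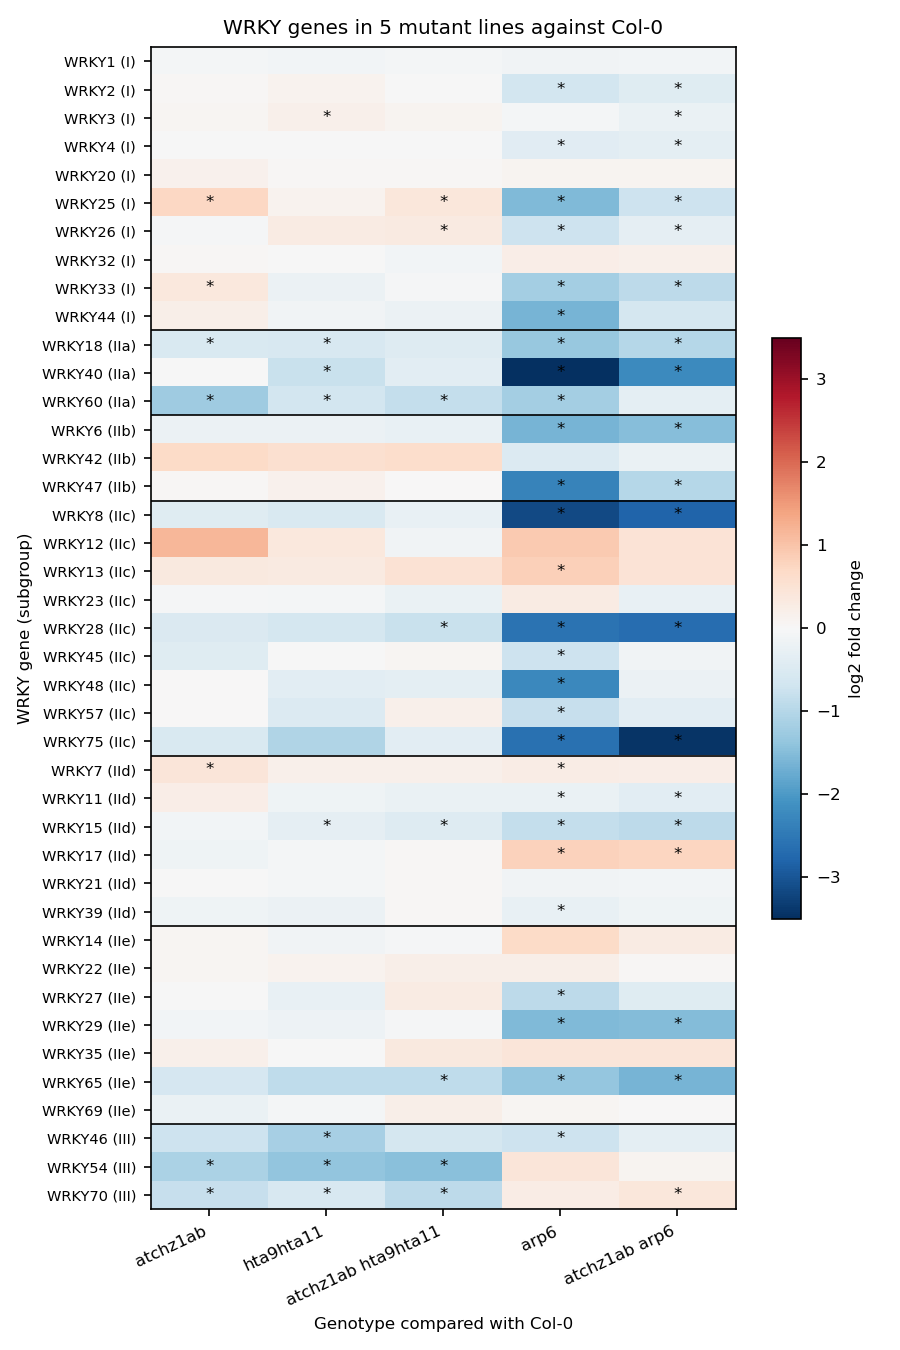
Log2 fold change of each tested WRKY gene (rows, by subgroup) in 5 mutant lines against Col-0 (columns), blue for lower and red for higher, with a star where the gene was called. Blue stars fill most of the arp6 column, while WRKY54 and WRKY70 at the foot are starred blue in the first 3 columns and not in arp6; the WRKY75 value in atchz1ab arp6 rests on 3 counts.

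By subgroup, the genes lower in arp6 were 3 of 3 tested genes of IIa, 2 of 3 of IIb, 6 of 9 of IIc, 6 of 10 of group I, 3 of 6 of IId, 3 of 7 of IIe and 1 of 3 of group III. The 3 genes that were higher belonged to IIc (1) and IId (2). Subgroups are small, and no difference between them was tested.

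Group IIa holds WRKY18, WRKY40 and WRKY60, whose proteins bind each other and act in basal defence and abscisic acid signalling. WRKY40 (AT1G80840), whose change was the largest of the 3, had CPM of 12.5, 10.6 and 10.7 in the Col-0 libraries, 10.5, 12.3 and 10.7 in atchz1ab, 6.55, 6.43 and 6.6 in hta9hta11, 7.53, 9.58 and 9.33 in atchz1ab hta9hta11, 0.949, 1.48 and 0.594 in arp6 and 2.02, 2.28 and 2.91 in atchz1ab arp6. Every arp6 and atchz1ab arp6 library lay below all others, and the hta9hta11 libraries lay below those of Col-0. The fold change was -3.51 ± 0.24, adjusted p = 1.78e-26 in arp6 and -0.78 ± 0.16, adjusted p = 0.000115 in hta9hta11. WRKY40 shares 51 bases with a gene on the opposite strand, and whether reads were counted by strand is not given.

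WRKY18 (AT4G31800) had CPM of 11.3, 9.02 and 9.5 in Col-0, 8.74, 6.46 and 5.32 in atchz1ab, 5.71, 7.67 and 6.71 in hta9hta11, 5.9, 8.26 and 7.64 in atchz1ab hta9hta11, 5.48, 2.96 and 3.09 in arp6 and 5.31, 4.69 and 4.72 in atchz1ab arp6. All mutant libraries lay below the Col-0 libraries, and the arp6 change was -1.32 ± 0.20, adjusted p = 4.38e-09. WRKY60 (AT2G25000) had CPM of 4.33, 8.39 and 7.5 in Col-0, 2.73, 2.96 and 2.94 in atchz1ab, 3.49, 5.2 and 4.37 in hta9hta11, 4.26, 3.96 and 3.15 in atchz1ab hta9hta11, 2.95, 3.56 and 2.49 in arp6 and 4.68, 5.89 and 5.41 in atchz1ab arp6. Its Col-0 libraries were spread widely, from 4.33 to 8.39, and the arp6 libraries lay below them (-1.19 ± 0.23, adjusted p = 5.27e-06).

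**Figure D3:**
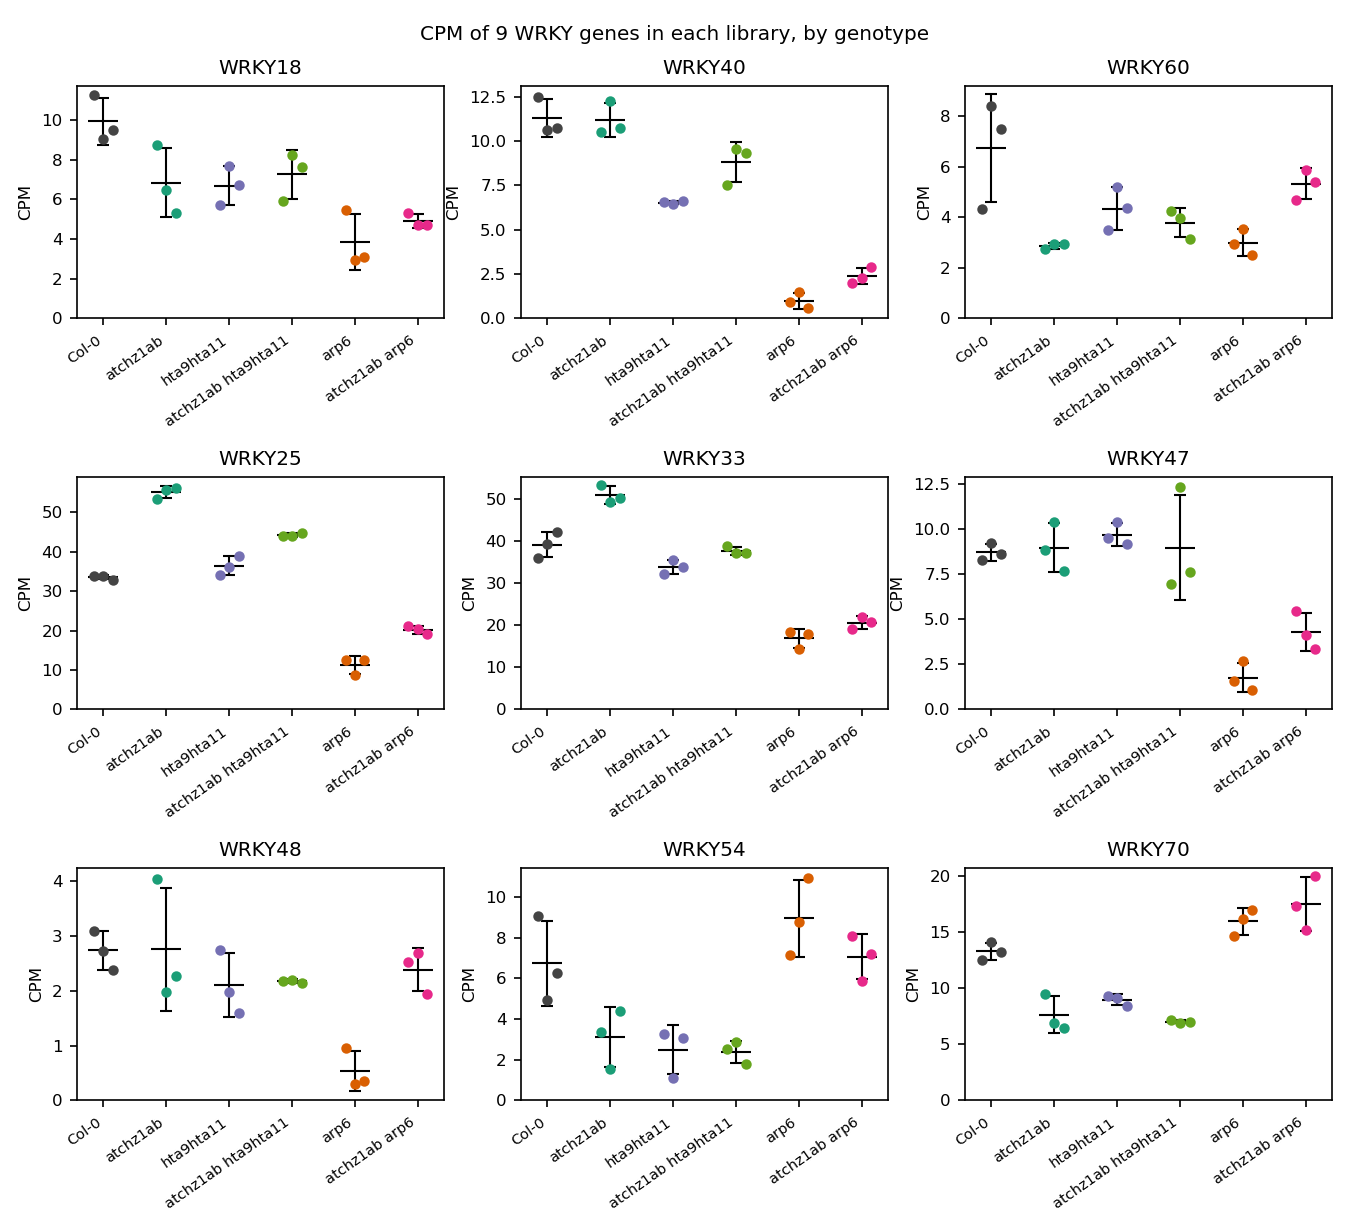
CPM of 9 WRKY genes in each library (points), with the mean and SD of the 3 libraries (black), by genotype and on an axis from 0. WRKY40, WRKY25, WRKY33, WRKY47 and WRKY48 are lowest in arp6, and WRKY54 and WRKY70 are low in the 3 lines without arp6.

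Group I holds WRKY33, which is phosphorylated by MAP kinases and drives camalexin synthesis, and its relatives WRKY25 and WRKY26, which act with it in heat tolerance. WRKY33 (AT2G38470) had CPM of 36.1, 39.4 and 42.2 in Col-0, 53.4, 49.5 and 50.3 in atchz1ab, 32.2, 35.5 and 33.9 in hta9hta11, 38.8, 37.2 and 37.3 in atchz1ab hta9hta11, 18.4, 14.4 and 18.1 in arp6 and 19.2, 22.1 and 20.8 in atchz1ab arp6. All atchz1ab libraries lay above Col-0, and all arp6 libraries lay below it (-1.19 ± 0.09, adjusted p = 4.41e-23). WRKY33 shares 298 bases with genes on the opposite strand, so part of its reads may be theirs.

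WRKY25 (AT2G30250) had CPM of 33.9, 33.8 and 32.9 in Col-0, 53.4, 55.5 and 56.2 in atchz1ab, 34.1, 36.1 and 38.9 in hta9hta11, 43.9, 44 and 44.7 in atchz1ab hta9hta11, 12.6, 8.75 and 12.6 in arp6 and 21.1, 20.4 and 19.1 in atchz1ab arp6. The libraries of atchz1ab were the highest of all and those of arp6 the lowest (-1.54 ± 0.10, adjusted p = 6.01e-28). WRKY26 (AT5G07100) had CPM of 12.4, 18.6 and 15.2 in Col-0, 15.2, 15.4 and 15 in atchz1ab, 18.5, 19.8 and 19.1 in hta9hta11, 19.1, 18.5 and 20.8 in atchz1ab hta9hta11, 9.38, 10.5 and 8.67 in arp6 and 12.8, 12 and 12.5 in atchz1ab arp6. Its arp6 libraries lay below all others (-0.71 ± 0.13, adjusted p = 1.56e-06).

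WRKY44 (AT2G37260), known as TTG2 for its role in trichomes and seed coats, had CPM of 3.84, 3.88 and 2.87 in Col-0, 3.93, 4.93 and 3.39 in atchz1ab, 3.49, 3.46 and 2.77 in hta9hta11, 2.72, 4.07 and 2.47 in atchz1ab hta9hta11, 0.843, 1.63 and 1.07 in arp6 and 1.9, 1.61 and 3.47 in atchz1ab arp6. The arp6 libraries lay below those of Col-0 (-1.62 ± 0.33, adjusted p = 1.60e-05). The remaining group I genes moved less in arp6: WRKY2, which acts in the zygote, fell by 0.65 and WRKY4 by 0.40 on the log2 scale, and WRKY1, WRKY3, WRKY20 and WRKY32 were not called there.

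The phosphate and senescence regulators WRKY6, WRKY42, WRKY45 and WRKY75 were measured at low to middling levels. WRKY6 (AT1G62300), which represses the phosphate exporter gene PHO1 and is induced in senescing leaves, had CPM of 20.1, 20.9 and 18.2 in Col-0, 17, 18.2 and 16 in atchz1ab, 15.1, 18.6 and 17.6 in hta9hta11, 17, 16.2 and 16.4 in atchz1ab hta9hta11, 5.69, 7.12 and 6.41 in arp6 and 7.33, 7.5 and 6.38 in atchz1ab arp6. The libraries with arp6 reached at most 7.5 CPM and no other was under 15.1 CPM (-1.64 ± 0.14, adjusted p = 3.48e-21). WRKY45 (AT3G01970), an activator of the phosphate transporter gene PHT1;1, had CPM of 9.66, 8.71 and 9.87 in Col-0, 7.86, 6.57 and 6.45 in atchz1ab, 9.19, 9.4 and 9.48 in hta9hta11, 10.2, 10.5 and 8.99 in atchz1ab hta9hta11, 6.22, 4.3 and 6.3 in arp6 and 8.22, 9.24 and 8.46 in atchz1ab arp6. Its arp6 libraries lay below every Col-0 library (-0.72 ± 0.17, adjusted p = 0.000154).

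WRKY75 (AT5G13080), which is induced by phosphate starvation and promotes leaf senescence, had CPM of 1.36, 1.68 and 1.62 in Col-0, 1.09, 0.985 and 1.13 in atchz1ab, 0.634, 0.495 and 1.06 in hta9hta11, 1.72, 0.881 and 0.899 in atchz1ab hta9hta11, 0.422, 0.148 and 0.119 in arp6 and 0.126, 0.268 and 0 in atchz1ab arp6. The libraries with arp6 lay below all others. These are few reads: 40 counts over the Col-0 libraries, 6 in arp6 and 3 in atchz1ab arp6. Scaled by library size, Col-0 exceeded arp6 by a ratio of 6.42 (95% counting interval 2.70 to 18.5) and atchz1ab arp6 by 11.8 (3.75 to 59.4), and both differences were called (adjusted p = 0.000114 and 1.73e-05). However, WRKY75 passed the low-count filter only through its Col-0 libraries, where it was highest. The ratios and calls against Col-0 rest on that selection and carry no weight as tests, though the calls stay in the counts of lower genes above. WRKY42 (AT4G04450), another repressor of PHO1, had CPM of 2.72, 3.04 and 1.87 in Col-0, 3.82, 5.47 and 3.05 in atchz1ab, 3.91, 3.96 and 3.62 in hta9hta11, 4.54, 3.63 and 3.6 in atchz1ab hta9hta11, 1.26, 2.37 and 2.02 in arp6 and 1.9, 2.81 and 1.8 in atchz1ab arp6. It was called in no line against Col-0, and in arp6 it was lower than in hta9hta11 (-1.05 ± 0.29, adjusted p = 0.00166).

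In IIb, WRKY47 (AT4G01720) had CPM of 8.29, 9.23 and 8.62 in Col-0, 8.85, 10.4 and 7.69 in atchz1ab, 9.51, 10.4 and 9.16 in hta9hta11, 6.99, 12.3 and 7.64 in atchz1ab hta9hta11, 1.58, 2.67 and 1.07 in arp6 and 5.44, 4.15 and 3.33 in atchz1ab arp6. The arp6 libraries were the lowest and those of atchz1ab arp6 lay between them and all others (-2.34 ± 0.24, adjusted p = 8.19e-16 for arp6 against Col-0).

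The IIc genes WRKY8, WRKY28 and WRKY48 act in defence: WRKY8 against a crucifer-infecting tobamovirus, WRKY28 as an activator of the salicylic acid synthesis gene ICS1, and WRKY48 as a repressor of basal resistance. WRKY28 (AT4G18170) had CPM of 5.94, 5.56 and 4.62 in Col-0, 3.49, 3.39 and 4.41 in atchz1ab, 3.17, 3.71 and 3.73 in hta9hta11, 2.72, 3.41 and 3.37 in atchz1ab hta9hta11, 1.16, 1.04 and 0.475 in arp6 and 1.14, 0.669 and 0.694 in atchz1ab arp6. The 6 libraries with arp6 reached at most 1.16 CPM and no other library was under 2.72 CPM (-2.57 ± 0.32, adjusted p = 4.75e-12). WRKY48 (AT5G49520) had CPM of 3.1, 2.73 and 2.37 in Col-0, 4.04, 1.97 and 2.26 in atchz1ab, 2.75, 1.98 and 1.6 in hta9hta11, 2.18, 2.2 and 2.14 in atchz1ab hta9hta11, 0.949, 0.296 and 0.356 in arp6 and 2.53, 2.68 and 1.94 in atchz1ab arp6. The arp6 libraries lay below all others (-2.24 ± 0.42, adjusted p = 2.32e-06) but held only 9, 2 and 3 counts of WRKY48.

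WRKY8 (AT5G46350) had CPM of 1.61, 2.52 and 1.62 in Col-0, 2.18, 1.31 and 0.792 in atchz1ab, 1.06, 1.11 and 1.81 in hta9hta11, 2.0, 1.1 and 1.69 in atchz1ab hta9hta11, 0, 0.593 and 0.119 in arp6 and 0.126, 0.402 and 0.278 in atchz1ab arp6. The libraries with arp6 lay below those of Col-0. Its reads numbered 50 over the Col-0 libraries and 5 in arp6, a scaled ratio of 9.63 (95% counting interval 3.86 to 30.9, adjusted p = 3.33e-06). WRKY57, which acts in drought tolerance and senescence, had a mean of 8.54 ± 0.688 CPM (SD, n = 3) in Col-0 and 4.89 ± 1.01 in arp6, and its libraries did not overlap (-0.80 ± 0.18, adjusted p = 9.90e-05).

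Of the IIe genes, WRKY29 (AT4G23550), placed downstream of flagellin sensing, had CPM of 2.85, 2.41 and 2.0 in Col-0, 2.08, 2.41 and 2.38 in atchz1ab, 2.01, 2.47 and 2.02 in hta9hta11, 2.0, 2.42 and 2.7 in atchz1ab hta9hta11, 0.738, 1.48 and 0.356 in arp6 and 0.759, 0.937 and 0.833 in atchz1ab arp6. The libraries with arp6 lay below all others (-1.55 ± 0.40, adjusted p = 0.00056), and 251 bases of the gene overlap one on the opposite strand. WRKY65 (AT1G29280) had CPM of 4.33, 3.25 and 2.75 in Col-0, 2.08, 2.19 and 2.6 in atchz1ab, 2.11, 2.97 and 0.639 in hta9hta11, 2.27, 1.76 and 1.46 in atchz1ab hta9hta11, 1.58, 1.33 and 1.07 in arp6 and 0.759, 1.07 and 1.53 in atchz1ab arp6. The arp6 and atchz1ab arp6 libraries lay below Col-0 (-1.35 ± 0.35, adjusted p = 0.000542 in arp6), but the hta9hta11 libraries spread from 0.639 to 2.97. WRKY27 was also called lower in arp6 with overlapping libraries (-0.91 ± 0.35, adjusted p = 0.0223), and the call did not hold once Col-0 library 1 or 3, or once arp6 library 1 or 3 was left out (adjusted p up to 0.131).

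In IId, whose members bind calmodulin, the changes in arp6 went in both directions. WRKY17, a repressor of basal resistance, was higher, with a mean of 7.78 ± 1.86 CPM (SD, n = 3) in Col-0 and 13.4 ± 2.2 in arp6 (0.81 ± 0.16, adjusted p = 6.76e-06). Its close relative WRKY11 was lower by a small margin (-0.24 ± 0.10, adjusted p = 0.0406), and the call did not hold once Col-0 library 1 or 3, or once arp6 library 1 or 3 was left out (adjusted p up to 0.219). WRKY15 fell from 42.8 ± 3.24 to 24.2 ± 1.22 CPM (SD, n = 3 each; -0.82 ± 0.09, adjusted p = 1.69e-14). WRKY7 was higher (0.25 ± 0.10, adjusted p = 0.0308), and the call did not hold once Col-0 library 1 or 2, or once arp6 library 1 or 2 was left out (adjusted p up to 0.149). WRKY39, known from heat responses, was lower (-0.25 ± 0.08, adjusted p = 0.00451), and the call did not hold once Col-0 library 3, or once arp6 library 1 was left out (adjusted p up to 0.108).

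WRKY12 and WRKY13 act in stem cell walls and have opposite effects on flowering time. WRKY13 (AT4G39410) had CPM of 1.49, 1.47 and 1.5 in Col-0, 1.75, 1.53 and 2.38 in atchz1ab, 1.9, 1.48 and 2.13 in hta9hta11, 2.54, 1.65 and 2.02 in atchz1ab hta9hta11, 3.48, 1.78 and 2.49 in arp6 and 1.39, 1.87 and 3.05 in atchz1ab arp6. All arp6 libraries lay above Col-0 (0.83 ± 0.35, adjusted p = 0.0368), and the call did not hold once Col-0 library 1, 2 or 3, or once arp6 library 1 or 3 was left out (adjusted p up to 0.286). WRKY12 (AT2G44745) had CPM of 0.371, 0.735 and 1.5 in Col-0, 2.4, 1.75 and 1.7 in atchz1ab, 0.528, 1.61 and 1.28 in hta9hta11, 0.544, 0.66 and 1.24 in atchz1ab hta9hta11, 1.58, 1.48 and 1.78 in arp6 and 1.14, 1.34 and 1.11 in atchz1ab arp6. It varied widely among the Col-0 libraries and was called in no comparison.

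The group III genes WRKY54, WRKY70 and WRKY46 act in salicylic acid signalling, hold back leaf senescence or, with brassinosteroids, tie growth to drought responses. Most of their calls lay in the lines without arp6. WRKY54 (AT2G40750) had CPM of 9.04, 4.93 and 6.25 in Col-0, 3.39, 1.53 and 4.41 in atchz1ab, 3.28, 1.11 and 3.09 in hta9hta11, 2.54, 2.86 and 1.8 in atchz1ab hta9hta11, 7.17, 8.75 and 10.9 in arp6 and 8.09, 5.89 and 7.22 in atchz1ab arp6. It was lower than Col-0 in atchz1ab (-1.103 ± 0.24, adjusted p = 0.000232), hta9hta11 (-1.38 ± 0.25, adjusted p = 7.19e-06) and atchz1ab hta9hta11 (-1.46 ± 0.25, adjusted p = 1.51e-06), with no overlap of libraries. In arp6 the libraries overlapped those of Col-0 and the gene was not called (0.42 ± 0.20, adjusted p = 0.0784).

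WRKY70 (AT3G56400) had CPM of 12.5, 14.1 and 13.2 in Col-0, 9.5, 6.9 and 6.45 in atchz1ab, 9.3, 9.16 and 8.41 in hta9hta11, 7.17, 6.94 and 6.97 in atchz1ab hta9hta11, 14.7, 16.2 and 17 in arp6 and 17.3, 15.1 and 19.98 in atchz1ab arp6. The libraries of the 3 lines without arp6 reached at most 9.5 CPM, and no Col-0 or arp6 library was under 12.5. The gene was lower in atchz1ab (-0.80 ± 0.14, adjusted p = 4.80e-06), hta9hta11 (-0.57 ± 0.14, adjusted p = 0.00158) and atchz1ab hta9hta11 (-0.92 ± 0.14, adjusted p = 1.67e-07) and was higher in atchz1ab arp6 (0.39 ± 0.13, adjusted p = 0.00785). The last call did not hold once atchz1ab arp6 library 3 was left out (adjusted p up to 0.0969).

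WRKY46 (AT2G46400) had CPM of 2.72, 3.36 and 4.12 in Col-0, 2.4, 2.08 and 1.7 in atchz1ab, 2.22, 1.24 and 1.06 in hta9hta11, 1.81, 2.53 and 2.36 in atchz1ab hta9hta11, 1.16, 3.26 and 2.02 in arp6 and 3.16, 2.28 and 2.5 in atchz1ab arp6. The hta9hta11 libraries lay below Col-0 (-1.15 ± 0.32, adjusted p = 0.00727), and the call did not hold once Col-0 library 3, or once hta9hta11 library 3 was left out (adjusted p up to 0.0843). The arp6 libraries overlapped those of Col-0 (-0.72 ± 0.31, adjusted p = 0.0434), and the call did not hold once Col-0 library 2 or 3, or once arp6 library 1 or 3 was left out (adjusted p up to 0.359).

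In atchz1ab alone, the 3 genes called higher than in Col-0 were WRKY25 (0.71 ± 0.08, adjusted p = 8.50e-14), WRKY33 (0.38 ± 0.08, adjusted p = 5.52e-05) and WRKY7 (0.44 ± 0.10, adjusted p = 0.00026). The 4 lower genes were WRKY60 (-1.24 ± 0.23, adjusted p = 9.33e-06), WRKY54, WRKY70 and WRKY18 (-0.53 ± 0.17, adjusted p = 0.0281). No library of a called gene overlapped Col-0, but these genes were picked by the test on the same libraries. For WRKY18 the call did not hold once Col-0 library 1, or once atchz1ab library 2 or 3 was left out (adjusted p up to 0.231). The share of counts on chloroplast and mitochondrial genes was lower wherever atchz1ab was present, with no overlap of libraries. It was 1.59% to 1.60% in atchz1ab and 2.12% to 2.14% in Col-0, 1.72% to 1.73% in atchz1ab hta9hta11 and 2.08% to 2.12% in hta9hta11, and 1.73% to 1.77% in atchz1ab arp6 and 2.13% to 2.21% in arp6. The part of this difference in the WRKY changes with atchz1ab was not tested.

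In hta9hta11, the 7 lower genes were all 3 of IIa, all 3 tested genes of group III, and WRKY15. WRKY15, a regulator of leaf growth and oxidative stress, changed by a small amount (-0.31 ± 0.08, adjusted p = 0.00579), and the call did not hold once Col-0 library 1, or once hta9hta11 library 2 was left out (adjusted p up to 0.0809). WRKY18 (-0.57 ± 0.17, adjusted p = 0.0176) and WRKY60 (-0.65 ± 0.21, adjusted p = 0.0278) were called too, but for WRKY18 the call did not hold once Col-0 library 1, or once hta9hta11 library 1 or 3 was left out (adjusted p up to 0.139), and for WRKY60, whose libraries overlapped, the call did not hold once Col-0 library 2 or 3, or once hta9hta11 library 1 or 3 was left out (adjusted p up to 0.298). The 1 higher gene was WRKY3, with overlapping libraries (0.19 ± 0.06, adjusted p = 0.0197), and the call did not hold once Col-0 library 1 or 2, or once hta9hta11 library 2 or 3 was left out (adjusted p up to 0.211).

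In atchz1ab hta9hta11, WRKY54, WRKY70, WRKY60 (-0.83 ± 0.21, adjusted p = 0.00303), WRKY15 (-0.44 ± 0.08, adjusted p = 1.66e-05), WRKY28 (-0.77 ± 0.24, adjusted p = 0.0187) and WRKY65 (-0.89 ± 0.31, adjusted p = 0.0494) were lower than in Col-0. The WRKY60 call did not hold once Col-0 library 2 was left out (adjusted p up to 0.101), the WRKY28 call did not hold once Col-0 library 1 or 2, or once atchz1ab hta9hta11 library 1 was left out (adjusted p up to 0.121) and the WRKY65 call did not hold once Col-0 library 1 or 2, or once atchz1ab hta9hta11 library 1, 2 or 3 was left out (adjusted p up to 0.254). WRKY25 (0.40 ± 0.08, adjusted p = 4.85e-05) and WRKY26 (0.33 ± 0.11, adjusted p = 0.0402) were higher. The WRKY26 libraries overlapped, and its call did not hold once Col-0 library 1 or 3, or once atchz1ab hta9hta11 library 1 or 3 was left out (adjusted p up to 0.379).

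Compared directly with hta9hta11, the combined line had 2 WRKY genes higher, while 0.793% of all genes were higher, and 0 lower, while 0.952% of all genes were. The 2 higher genes were WRKY57 (0.65 ± 0.16, adjusted p = 0.0114), whose call did not hold once hta9hta11 library 1, or once atchz1ab hta9hta11 library 1 was left out (adjusted p up to 0.226), and WRKY25 (0.28 ± 0.08, adjusted p = 0.0295), whose call did not hold once hta9hta11 library 1 or 2, or once atchz1ab hta9hta11 library 1, 2 or 3 was left out (adjusted p up to 0.237). In edgeR, 6 members had an unadjusted p under 0.05 in either direction. The share of all genes under that limit was not computed, so this count has no background beside it. DESeq2 called 0 lower and 0 higher.

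Compared with arp6, atchz1ab arp6 had 7 WRKY genes higher and 1 lower, beside 6.63% and 8.01% of all genes. The 7 were WRKY48 (2.05 ± 0.44, adjusted p = 0.000156), WRKY47 (1.34 ± 0.28, adjusted p = 0.000122), WRKY40 (1.28 ± 0.35, adjusted p = 0.00381), WRKY60 (0.84 ± 0.25, adjusted p = 0.0098), WRKY25 (0.81 ± 0.11, adjusted p = 5.17e-09), WRKY45 (0.60 ± 0.17, adjusted p = 0.00898) and WRKY26 (0.39 ± 0.14, adjusted p = 0.0419). The libraries of the 2 lines did not overlap for any of these genes, which were picked by the test on the same libraries. WRKY48, WRKY47 and WRKY25 were called in every fit that left out 1 library, but WRKY48 had only 9, 2 and 3 counts in the arp6 libraries. The WRKY40 call did not hold once arp6 library 3 was left out (adjusted p up to 0.0571), the WRKY60 call did not hold once arp6 library 3, or once atchz1ab arp6 library 2 was left out (adjusted p up to 0.0705), the WRKY45 call did not hold once arp6 library 2, or once atchz1ab arp6 library 2 was left out (adjusted p up to 0.0895) and the WRKY26 call did not hold once arp6 library 1 or 3, or once atchz1ab arp6 library 1, 2 or 3 was left out (adjusted p up to 0.175). The lower gene was WRKY23, an auxin-responsive root gene (-0.54 ± 0.18, adjusted p = 0.0277), whose call did not hold once arp6 library 1, or once atchz1ab arp6 library 2 or 3 was left out (adjusted p up to 0.215). Other lists moved in this comparison too. Of 14 tested genes of rapid touch and stress responses, 6 were higher and 0 lower (median 0.49), among them the zinc finger gene ZAT10 (1.49 ± 0.34, adjusted p = 0.000511) and the calmodulin-like gene TCH3 (1.32 ± 0.10, adjusted p = 4.34e-23), and their summed level was 124 to 136 CPM in atchz1ab arp6 and 91.0 to 96.2 CPM in arp6. All 4 leaf markers were lower (median -0.24), with summed levels of 22147 to 22930 CPM in atchz1ab arp6 and 25499 to 25988 CPM in arp6. Of 4 tested senescence markers, 2 were higher, SAG13 (2.24 ± 0.50, adjusted p = 0.000333) and SEN1 (0.57 ± 0.07, adjusted p = 9.96e-12), and 0 lower. The part of these genes in the WRKY changes was not tested.

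Against Col-0, the members called lower in atchz1ab arp6 and not named above for that line included WRKY40 (-2.23 ± 0.21, adjusted p = 4.83e-18), WRKY28 (-2.66 ± 0.33, adjusted p = 7.21e-12), WRKY6 (-1.48 ± 0.14, adjusted p = 2.34e-18) and WRKY47 (-1.01 ± 0.20, adjusted p = 1.03e-05). The higher genes were WRKY70 and WRKY17 (0.75 ± 0.16, adjusted p = 4.94e-05). WRKY48, with a mean of 2.38 ± 0.389 CPM (SD, n = 3) in this line and 2.73 ± 0.36 in Col-0, was not called.

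Set directly against hta9hta11, arp6 had 18 WRKY genes lower and 4 higher, beside 22.6% and 22.1% of all genes. The largest falls were in WRKY40 (-2.73 ± 0.27, adjusted p = 1.60e-16), WRKY8, WRKY47 (-2.49 ± 0.23, adjusted p = 1.00e-17) and WRKY28 (-1.97 ± 0.34, adjusted p = 4.17e-07). WRKY26 was also lower (-1.01 ± 0.13, adjusted p = 8.30e-12). WRKY54 (1.80 ± 0.24, adjusted p = 1.09e-10), WRKY17 (0.87 ± 0.16, adjusted p = 1.39e-06), WRKY70 (0.83 ± 0.14, adjusted p = 1.19e-07) and WRKY14 (0.79 ± 0.31, adjusted p = 0.0275) were higher in arp6 than in hta9hta11. The WRKY14 call did not hold once hta9hta11 library 1 or 2, or once arp6 library 1 or 3 was left out (adjusted p up to 0.111).

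Whether the change with atchz1ab differed between backgrounds was tested as an interaction. Between arp6 and Col-0, 7 WRKY genes had a higher change in arp6 and 2 a lower one, beside 6.38% and 7.35% of all genes. The largest differences were in WRKY60, which fell with atchz1ab in Col-0 and rose in arp6 (difference 2.08 ± 0.34, adjusted p = 3.46e-07), and in WRKY48 (difference 2.04 ± 0.54, adjusted p = 0.00347). The WRKY48 level in arp6 rests on 9, 2 and 3 counts. The 3 genes of IIa, WRKY18, WRKY40 and WRKY60, were among the 7. Between hta9hta11 and Col-0, 2 had a higher change and 2 a lower one, beside 3.41% and 3.74% of all genes. WRKY25, which rose with atchz1ab in all 3 backgrounds, rose less in hta9hta11 than in Col-0 (difference -0.43 ± 0.11, adjusted p = 0.0035).

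**Figure D4:**
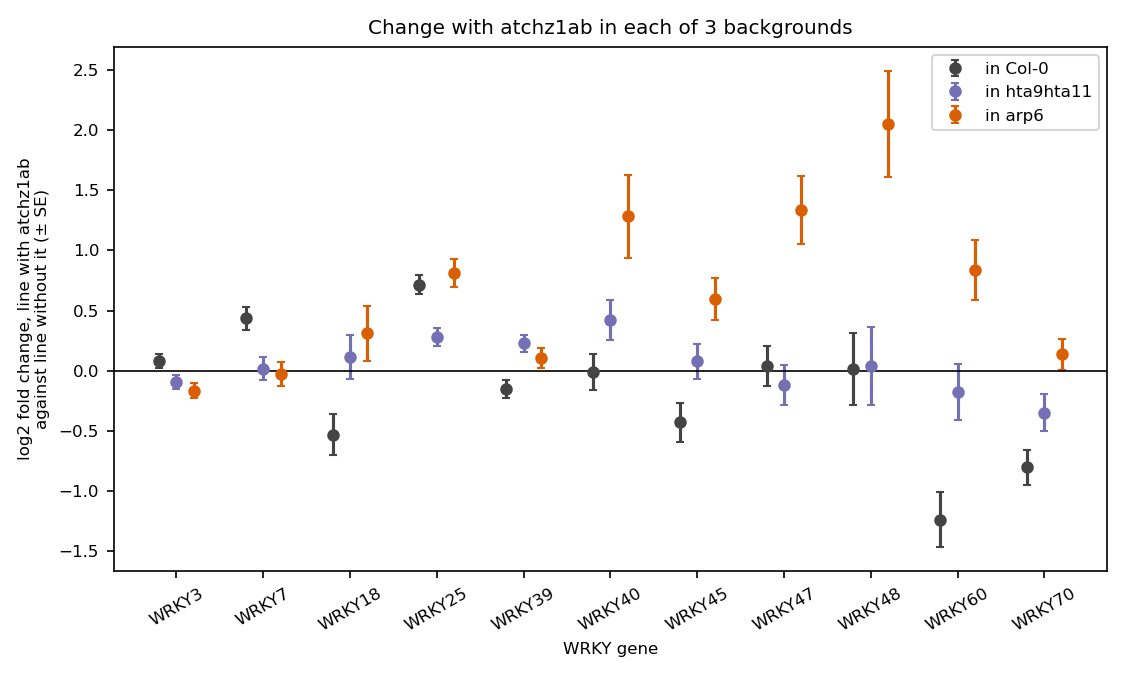
Log2 fold change (± SE) between lines with and without atchz1ab in the Col-0, hta9hta11 and arp6 backgrounds, for the 11 WRKY genes whose change differed in at least 1 interaction test. The arp6 points of WRKY40, WRKY47, WRKY48 and WRKY60 lie above the other 2, and WRKY25 lies above 0 in all 3.

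Lists of genes outside the family were counted in arp6 against Col-0, where the shares of all genes given above are the background. Of the 14 tested genes of rapid touch and stress responses, 13 were lower and 0 higher, with a median log2 fold change of -1.79 beside -0.02 for all genes. Their summed level was 91.0 to 96.2 CPM in the arp6 libraries and 262 to 278 CPM in Col-0. The calmodulin-like gene CML38 was among those lower (-3.81 ± 0.37, adjusted p = 7.59e-17), and CML37 had 1 count in arp6 and 60 in Col-0. In atchz1ab, 4 of these 14 genes were higher and 0 lower, beside 6.15% and 5.55% of all genes, with summed levels of 300 to 311 CPM. They were led by ERF6 (0.60 ± 0.16, adjusted p = 0.00399) and the zinc finger gene ZAT10 (0.59 ± 0.16, adjusted p = 0.00624). The part of such responses in the WRKY changes was not tested.

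Of 11 tested defence and camalexin genes, 8 were lower in arp6 and 0 higher (median -1.18), beside 25.5% and 24.2% of all genes. PAD3, the last enzyme of camalexin synthesis and a target of WRKY33, was lower (-4.75 ± 0.38, adjusted p = 6.42e-22), and CYP71A12 had 2 counts in arp6 and 76 in Col-0. Mean PAD3 was 8.05 CPM in Col-0 and 0.527 in atchz1ab arp6, where WRKY33 was called lower as well. It was 3.02 in atchz1ab, where WRKY33 was called higher. It was 2.22 in hta9hta11 and 2.59 in atchz1ab hta9hta11, where WRKY33 was not called. The part of WRKY33 in the PAD3 level was not tested. In atchz1ab, 5 of the 11 were lower and 0 higher, beside 5.55% and 6.15% of all genes, led by the salicylic acid marker genes PR1 (-3.69 ± 0.37, adjusted p = 2.07e-15) and PR2 (-2.54 ± 0.20, adjusted p = 6.37e-22). In hta9hta11 and in atchz1ab hta9hta11, 5 were lower and 0 higher as well. Among the 11, the camalexin gene CYP71A13 reached the low-count filter through Col-0 alone. Its Col-0 levels were 2.72, 2.52 and 2.5 CPM, and no mutant library exceeded 0.792 CPM. A call of CYP71A13 as lower than Col-0 therefore rests on that selection and carries no weight as a test. The gene was not taken out of the counts of lower genes given here. Mean PR1 was 6.4 CPM in Col-0, 0.48 in atchz1ab, 0.677 in hta9hta11, 0.696 in atchz1ab hta9hta11, 1.03 in arp6 and 3.5 in atchz1ab arp6. Mean PR2 was 14.8, 2.55, 4.58, 6.05, 1.96 and 5.81 CPM in the same order. Of 17 genes of salicylic acid synthesis and signalling, 4 were higher in arp6 and 2 lower (median 0.10), with EPS1 (1.52 ± 0.41, adjusted p = 0.00113) and NIMIN2 (1.01 ± 0.37, adjusted p = 0.0182) among the higher. The share higher, 23.5%, was near that of all genes (24.2%), and the share lower, 11.8%, was under it (25.5%). Of 10 genes of the MAP kinase cascade, 1 was higher and 4 lower (median -0.15), with MKK9 (-1.41 ± 0.15, adjusted p = 2.56e-15) and MKK4 (-0.60 ± 0.13, adjusted p = 6.33e-05) the largest. Of 7 genes for VQ proteins, which bind WRKY domains, 1 was higher and 2 lower (median -0.30), namely VQ22 (-1.65 ± 0.28, adjusted p = 1.84e-07) and VQ9 (-0.64 ± 0.18, adjusted p = 0.00128). The share of VQ genes lower, 28.6%, was near that of all genes (25.5%). In atchz1ab, 3 of the 17 salicylic acid genes were lower and 1 higher (median -0.20), beside 5.55% and 6.15% of all genes. In hta9hta11, 1 was lower and 0 higher (median -0.18), beside 5.26% and 5.98%. In atchz1ab hta9hta11, 2 were lower and 2 higher (median -0.18), beside 5.32% and 6.19%.

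Markers of organs and of leaf age moved with arp6 as well. All 4 leaf markers were higher, with summed levels of 25499 to 25988 CPM in arp6 and 17459 to 17597 CPM in Col-0, led by LHCB1.1 (1.14 ± 0.02, adjusted p = 1.26e-94), which has near-identical neighbours, and RCA (0.87 ± 0.01, adjusted p = 6.57e-96). Of 6 root markers, 2 passed the filter: GL2, which also acts in trichomes, was lower (-1.32 ± 0.17, adjusted p = 1.37e-11) and SCR was higher (0.22 ± 0.08, adjusted p = 0.0153), and the summed level was 41.4 to 49.4 CPM in arp6 and 46.4 to 50.02 CPM in Col-0. The defining root markers WER, EXP7, COBL9 and CASP1 were near 0 in Col-0, with 9, 2, 0 and 9 summed counts, and none exceeded 16 summed counts in any genotype. The share of root tissue in these samples is therefore uncertain. All 4 tested senescence markers were lower in arp6, led by SAG13 (-5.52 ± 0.30, adjusted p = 4.36e-35) and ORE1 (-0.74 ± 0.15, adjusted p = 2.03e-05), with summed levels of 61.5 to 62.0 CPM against 102 to 113 CPM. The fifth, SAG12, had 0 counts in every library.

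These markers also moved in the lines in which WRKY54 and WRKY70 were lower, with members in both directions. LHCB1.1 had a mean of 1159.8 ± 14.7 CPM (SD, n = 3) in Col-0, 635 ± 6.88 in atchz1ab (-0.87 ± 0.02, adjusted p = 2.24e-76), 877 ± 11.6 in hta9hta11 (-0.40 ± 0.02, adjusted p = 7.84e-42) and 935 ± 10.9 in the line combining both (-0.31 ± 0.02, adjusted p = 1.88e-32). Of the 4 leaf markers, 1 was higher and 2 lower in atchz1ab and in hta9hta11, and 1 was higher and 3 lower in atchz1ab hta9hta11. Their summed level was 16949 to 17108 CPM in atchz1ab, 17194 to 17612 CPM in hta9hta11, which overlapped Col-0, and 16524 to 16960 CPM in the combined line. Of the 4 senescence markers, SAG13 was lower and SEN1 higher in all 3 lines, and NYE1 and ORE1 were not called. SAG13 had a mean of 17.3 ± 1.68 CPM (SD, n = 3) in Col-0, 3.65 ± 1.59 in atchz1ab, 6.05 ± 0.0968 in hta9hta11 and 7.52 ± 0.82 in the combined line. SEN1 had 54.2 ± 6.89, 92.7 ± 2.99, 105 ± 0.749 and 93.9 ± 2.29 CPM (SD, n = 3) in the same order. The summed senescence level was 127 to 137 CPM in atchz1ab, 143 to 152 CPM in hta9hta11 and 135 to 139 CPM in the combined line, above Col-0 in every library. The part of organ make-up and leaf age in the WRKY results was not tested.

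The 8 genes WRKY1, WRKY12, WRKY20, WRKY21, WRKY22, WRKY32, WRKY35 and WRKY69 were called in no comparison of 2 genotypes. The other 33 of the 41 were called in at least 1, as were 66.7% of all tested genes. WRKY20 had a mean of 37.1 ± 1.5 CPM (SD, n = 3) in Col-0 and 39.3 ± 3.99 in arp6, and WRKY21 had 24.3 ± 0.616 and 22.2 ± 1.39. WRKY22, which is placed beside WRKY29 in flagellin signalling, had 2.86 ± 0.756 and 3.24 ± 0.179 CPM.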

How the data were processed

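RNA from 14-day-old seedlings of 6 genotypes, with 3 libraries each, was sequenced after a stranded mRNA kit, per the labels' protocols. The submitters' processing notes name cutadapt, HISAT2, SAMtools, featureCounts and the build TAIR10. Their versions were, like the strand setting of counting, not given in the sources used here. Per gene, the authors deposited a whole-number read count with no normalization. All 18 columns were matched to a library by name, and 0 were left unused.

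The members and gene lists, the comparisons and the rule for named genes were chosen with earlier results of these data known. By that rule every member may be named, library values are given for members picked by known role or called with at least a 2-fold change, and other genes come from the lists (the 2 largest called changes of each list in a comparison). WRKY subgroups and lists were written from general knowledge.

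The counts were tested with edgeR 4.0.16 in R 4.3.3 (TMM scaling, filterByExpr, quasi-likelihood F-test). All 18 libraries entered 1 fit on genotype with 12 residual degrees of freedom, and p-values were Benjamini-Hochberg adjusted over 18906 genes, which held 99.9048% of all counts. The script was tested on simulated data with known changes, which checks the code and not the calls made here. The bound set for recovered genes was loosened after the test fell short of it. The common biological coefficient of variation was 3.08%. Replicate pairs differed by more than sampling noise (chi-square per degree of freedom 1.43 to 1.67), so that no library was a copy of another. CPM use the TMM-scaled library size. Count ratios carry 95% intervals that cover counting error only.

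Alternatives were size factors by the RLE method, DESeq2 1.42.0, no filter, a filter of 1 CPM in 3 libraries with 30 counts, a fit of only the groups compared, a replicate block and leaving out each library. A further one, chosen after seeing the data, assumed a coefficient of variation of 0.1. Gene spans, exon lengths, promoter windows and codons came from the RefSeq annotation of TAIR10.1. Of the 54 genes, 52 matched a RefSeq symbol and the others a synonym or identifier. In all, 10 of the 54 share bases with a gene on the opposite strand, and their counts are uncertain.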

Additional observations from a re-analysis of the deposited data

Results flagged for a closer look

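The change with atchz1ab differed between backgrounds in 13 interaction tests over 11 WRKY genes, by edgeR's quasi-likelihood test of the difference itself. Of the differences between arp6 and Col-0, those of WRKY60 (2.08 ± 0.34, adjusted p = 3.46e-07) and WRKY48 (2.04 ± 0.54, adjusted p = 0.00347) were the largest. For WRKY48 the arp6 libraries held only 9, 2 and 3 counts. WRKY60, a member of the IIa group, changed by -1.24 ± 0.23, adjusted p = 9.33e-06 with atchz1ab in Col-0 and by 0.84 ± 0.25, adjusted p = 0.0098 in arp6. WRKY47 (1.295 ± 0.33, adjusted p = 0.00223), WRKY40 (1.29 ± 0.38, adjusted p = 0.00925) and WRKY45 (1.03 ± 0.24, adjusted p = 0.000526) also had a higher change in arp6. The WRKY40 difference did not hold once arp6 library 3, or once atchz1ab arp6 library 3 was left out (adjusted p up to 0.0787).

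For WRKY70 the difference was 0.94 ± 0.19, adjusted p = 6.66e-05, beside changes of -0.80 ± 0.14, adjusted p = 4.80e-06 in Col-0 and 0.14 ± 0.13, adjusted p = 0.559 in arp6. For WRKY18 it was 0.84 ± 0.29, adjusted p = 0.033, which did not hold once Col-0 library 1, or once atchz1ab library 2 or 3, or once arp6 library 2 or 3, or once atchz1ab arp6 library 1 was left out (adjusted p up to 0.134). In the other direction, WRKY7 (-0.46 ± 0.14, adjusted p = 0.0111) and WRKY3 (-0.25 ± 0.09, adjusted p = 0.0468) had a lower change in arp6. The WRKY7 difference did not hold once atchz1ab arp6 library 3 was left out (adjusted p up to 0.0732), and the WRKY3 difference did not hold once Col-0 library 1 or 2, or once atchz1ab library 1 or 2, or once arp6 library 1 or 2, or once atchz1ab arp6 library 3 was left out (adjusted p up to 0.295).

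Between hta9hta11 and Col-0, the differences were 1.06 ± 0.33, adjusted p = 0.0262 for WRKY60, 0.38 ± 0.11, adjusted p = 0.0124 for WRKY39, -0.43 ± 0.11, adjusted p = 0.0035 for WRKY25 and -0.42 ± 0.13, adjusted p = 0.0366 for WRKY7. The WRKY25 difference was called in every fit that left out 1 library. The WRKY60 difference did not hold once Col-0 library 2 or 3, or once atchz1ab library 1, or once hta9hta11 library 1, or once atchz1ab hta9hta11 library 1 or 2 was left out (adjusted p up to 0.146), the WRKY39 difference did not hold once Col-0 library 3, or once hta9hta11 library 3 was left out (adjusted p up to 0.0936) and the WRKY7 difference did not hold once Col-0 library 1 or 2, or once atchz1ab library 3, or once hta9hta11 library 1 or 3, or once atchz1ab hta9hta11 library 2 or 3 was left out (adjusted p up to 0.143).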

How the results depend on the processing

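Of 114 pairs of a WRKY gene and a comparison that were called, 80 stayed called in every fit that left out 1 library, 34 were lost in at least 1, and none reversed under any alternative run. In arp6 against Col-0 the count of lower genes ran from 22 to 24 under the settings other than leaving out a library, and from 20 to 24 with 1 library left out. For atchz1ab arp6 against Col-0 these ranges were 14 to 17 and 16 to 19, and for arp6 against hta9hta11 17 to 18 and 18 to 19. DESeq2 lost 21 of the 114 calls and an assumed coefficient of variation of 0.1, added after seeing the data, lost 27. Deviations of same-numbered libraries correlated from -0.0267 to 0.0296, and those of different-numbered libraries from -0.0334 to 0.0354. No pairing by replicate number was seen, though a weak one could be missed. The replicate block changed 1 call, WRKY65 in atchz1ab hta9hta11 against Col-0 (-0.89, adjusted p = 0.0504), which RLE size factors lost too.

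The small counts moved most. With DESeq2, the genes called higher were 0 of the former 1 in hta9hta11, 1 of 2 in atchz1ab hta9hta11 and 1 of 3 in arp6, each against Col-0, and 0 of 2 in atchz1ab hta9hta11 against hta9hta11. It called 0 lower in atchz1ab arp6 against arp6 (1 in the main test). In the hta9hta11 interaction it called 1 higher and 1 lower (2 and 2), and in the arp6 interaction 1 lower (2). With the assumed variation of 0.1, 0 were called higher in hta9hta11 or atchz1ab hta9hta11 against Col-0 and in atchz1ab hta9hta11 against hta9hta11, 0 lower in atchz1ab arp6 against arp6, 0 in either direction in the hta9hta11 interaction and 0 lower in the arp6 interaction. Fitting only the groups compared gave 1 lower in the arp6 interaction. The cause of these changes was not tested.

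With 1 library left out, hta9hta11 against Col-0 had 0 to 1 genes higher and 4 to 7 lower, the 4 without hta9hta11 replicate 3. The combined line atchz1ab hta9hta11 had 1 to 2 higher and 3 to 6 lower than Col-0, the 3 without Col-0 replicate 2, and 0 to 2 higher than hta9hta11. In atchz1ab arp6 against arp6, 4 to 7 were higher, the 4 without arp6 replicate 3, and 0 to 2 lower. The hta9hta11 interaction gave 0 to 3 higher and 1 to 3 lower, and the arp6 interaction 0 to 3 lower, the 0 without atchz1ab arp6 replicate 3. Depth limits the genes under about 2 CPM, such as WRKY8 and WRKY75, those that fall under it in arp6, such as WRKY48, and the 13 genes that were not tested.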
